A study of Mus musculus with 16 samples.

Results

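In mouse muscle cells, 12071 genomic regions held a MyoD peak in proliferating myoblasts and a MyoG peak in early myotubes, with neither a RUNX1 nor a c-Jun peak of myoblasts. They were chosen by merging the peaks of the 4 deposited lists on chromosomes 1 to 19 (build mm9) that overlapped by at least 1 bp, and keeping merged regions with MyoD and MyoG only. The 4 lists gave 97753 merged regions, so the chosen ones were 12.3% of all of them. They are called MyoD-MyoG regions below. The presence and absence of peaks chose them, so these counts are descriptions with no test.

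MyoD and MyoG are related basic helix-loop-helix factors that bind E-box DNA and switch on muscle genes. MyoD commits cells to the muscle lineage and is already present in dividing myoblasts, while MyoG comes on when myoblasts leave the cell cycle and start to fuse into myotubes, where it takes up many MyoD sites. RUNX1 is a Runt-domain factor, and c-Jun is a subunit of AP-1, a factor of growth signalling. The study asked how RUNX1 binding relates to MyoD and c-Jun in myoblasts. The regions described here are MyoD sites of myoblasts that had neither partner peak and held MyoG in myotubes.

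The cells were grown from satellite cells (muscle stem cells) of the gastrocnemius of wild-type C57BL/6 mice at 2 to 3 weeks of age. RUNX1 (in-house antibody), MyoD and c-Jun were precipitated after 3 days in culture, and MyoG on day 4, after 24 hours of serum starvation in medium with horse serum and insulin. Each of the 4 ChIP groups had 2 samples, matched by 2 samples of rabbit non-immune serum for RUNX1, of mouse IgG for MyoD and for MyoG, and of rabbit IgG for c-Jun, 16 in all. All cells were wild type, and the labels give neither the number of mice nor whether mice were pooled. Factor and cell stage differed together for MyoG, so a difference between MyoD and MyoG cannot be told apart from one between myoblasts and myotubes.

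Each factor had a single peak list with no replicate columns, so no spread between cultures exists and no test of a difference could be made. Percentages carry a 95% exact binomial interval, which covers counting error only and treats regions as independent, and the range over the 19 chromosomes, which describes variation along the genome and not between mice. The authors' score, 50.01 or more for every peak, ranks peaks within a list. It is given below as a percentile of the whole list, with 100 the strongest. Read depth is unknown, and a missing peak does not show that a factor was absent. Genes, motifs and sequences at these regions were not analysed here.

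Under the rule of 1 bp overlap, MyoD-MyoG regions were the most common kind of region with both factors. Of the 33856 regions that held both factors, 35.7% (interval 35.1 to 36.2) had neither partner. Regions with all 4 factors numbered 10532, those with RUNX1 as the lone partner 6615, and those with c-Jun as the lone partner 4638. When a partner peak within 1 kb also counted against a region, 10137 MyoD-MyoG regions were left, or 29.9%. The share without a partner varied little over chromosomes 1 to 19, from 32.5% on chromosome 4 to 39.0% on chromosome 16. With the stronger 50% of each list alone, 6841 regions met the rule. Those lists hold fewer peaks by construction, and a partner peak in the weaker 50% then counts as absent. In the full lists, 3488 MyoD-MyoG regions had both percentiles above 50. The 6841 thus include regions that held a partner peak in the full lists.

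**Figure D1:**
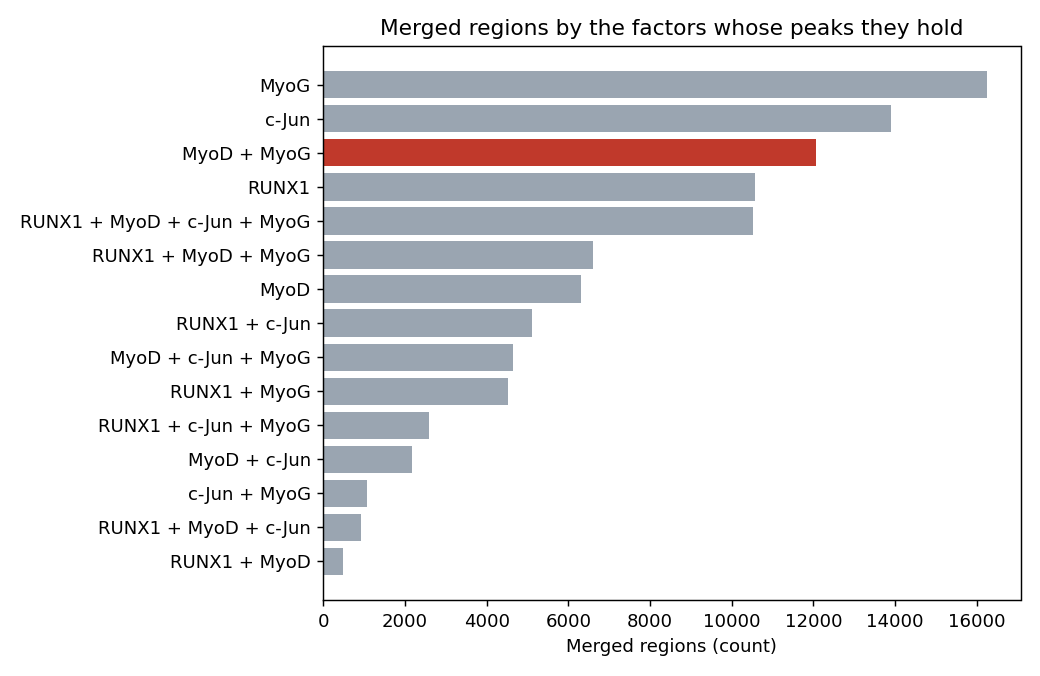
Number of merged regions (horizontal axis, count) for each combination of peaks. The MyoD-MyoG regions, in red, numbered 12071, behind MyoG alone with 16259 and c-Jun alone with 13905.

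Without a partner, a MyoD peak still usually had a MyoG peak after differentiation. Among regions with MyoD and neither RUNX1 nor c-Jun, 65.7% (interval 65.0 to 66.4; 61.6% to 70.4% over chromosomes) also held MyoG, against 77.4% of all regions with MyoD. In the other direction, 42.6% (interval 42.0 to 43.2) of partner-free MyoG regions held MyoD, against 58.1% of all regions with MyoG. The rule used these presences, so nothing is read from the differences.

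The regions were simple in build. In 98.7% of them, 11913 in number, 1 MyoD peak met 1 MyoG peak, and another 128 held 1 MyoD and 2 MyoG peaks. The region with the most peaks, 3 of MyoD and 2 of MyoG, lay at chr12:97006323-97008637 and was 2315 bp wide. The median MyoD peak was 782 bp wide (interquartile range 656 to 890 bp) and the median MyoG peak 640 bp (563 to 732 bp). The MyoG peak lay wholly inside the MyoD peak in 53.3% of the regions, and the reverse held in 9.89%. Over all peaks of the 2 lists the median width was 818 bp for MyoD and 641 bp for MyoG. Wider MyoD peaks were thus not particular to these regions.

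MyoD and MyoG peaks sat nearly on top of each other. Their centres were a median of 48.5 bp apart (interquartile range 23 to 87 bp; 43 to 55 bp over chromosomes), well inside the sheared fragment length of about 300 bp. Centres lay within 50 bp of each other in 51.4% of the regions (interval 50.5 to 52.3), against 47.5% of all regions with both factors, and within 150 bp in 92.4%. Neither side was favoured: the MyoG centre had the higher coordinate in 50.2%.

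The centres of MyoD and MyoG were farther apart where RUNX1 was present. The median distance was 56 bp with RUNX1 and 61.5 bp with RUNX1 and c-Jun, while with c-Jun alone it was 49 bp. MyoD-MyoG regions had a lower median than regions with RUNX1 on 17 of 19 chromosomes and a higher one on 0. Against regions with all 4 factors they were lower on 19 of 19, and against regions with c-Jun alone on 12, with 7 higher. These gaps are small beside the width of the peaks, and no replicate measured their error. The centre is the midpoint of a called peak, and peaks were wider where partners were present, with a median MyoG width of 783 bp in regions with all 4 factors. The part of peak width in the distances was not tested.

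Most MyoD-MyoG regions had weak to moderate MyoD peaks. The MyoD score ran from 50.01 to 3197 with a median of 140, percentile 42.3 of the MyoD list (interquartile range 22.4 to 63.1). The MyoG score ran from 50.01 to 3233 with a median of 237, percentile 56.2 of the MyoG list (interquartile range 33.7 to 74.4). Regions with all 4 factors stood at a median of 77.4 for MyoD and 81.2 for MyoG. Regions of MyoD alone had a median MyoD percentile of 23.1, and regions of MyoG alone a median MyoG percentile of 27.4. With c-Jun as the lone partner the medians were 66.1 for MyoD and 58.3 for MyoG, and with RUNX1 as the lone partner 55.8 and 78.0. By these medians, MyoD-MyoG regions lay between single-factor regions and those with all 4 factors in both lists. In the MyoG list they stood close to regions with c-Jun as the lone partner.

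Strong peaks of both factors without a partner were rare. Both percentiles exceeded 50 in 28.9% of the MyoD-MyoG regions, against 48.8% of all regions with both factors, and both exceeded 90 in 131 regions, or 1.09% (interval 0.908 to 1.29), against 7.68% of all regions with both factors. The last share was 3.77% with c-Jun alone, 4.97% with RUNX1 alone and 18.7% with all 4 factors. Another 28.7% had only MyoG above 50, 11.4% had only MyoD above 50, and 31.0% had both at or below 50. MyoG stood higher in its list than MyoD did in 65.1% of the regions, against 63.2% of all regions with both factors. The lists differ in length and their depth is unknown, so this compares places in 2 lists and is no change of binding.

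**Figure D2:**
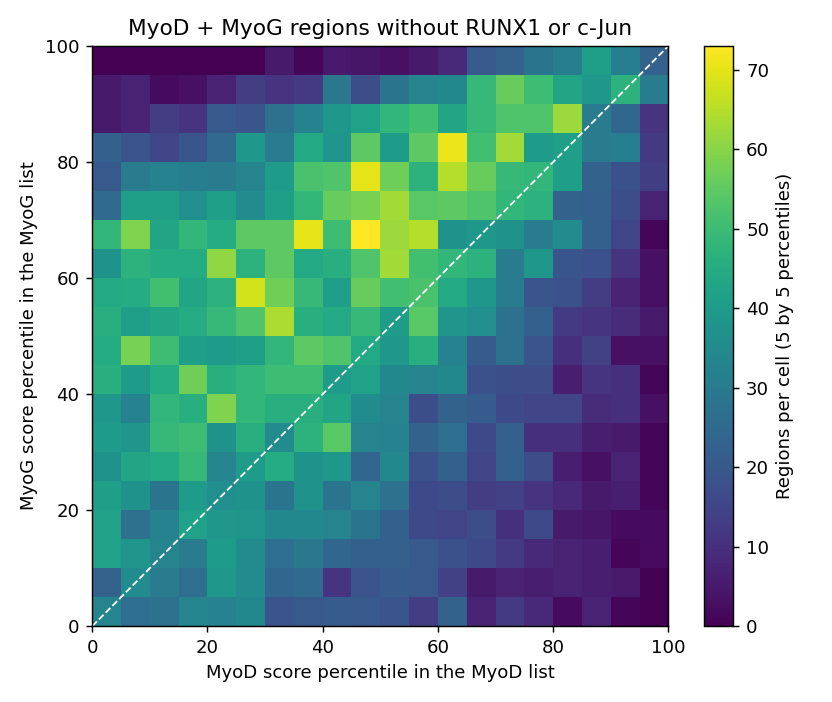
Number of MyoD-MyoG regions in cells of 5 by 5 percentiles, with the MyoD percentile across and the MyoG percentile up. The dashed line marks equal percentiles, and 65.1% of the regions lie above it.

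MyoD and MyoG strength were only loosely tied in these regions. The rank correlation of the scores over the 12071 regions was 0.35 (Spearman's rho, 0.27 to 0.41 over chromosomes). It was 0.45 with c-Jun alone, 0.52 with RUNX1 alone and 0.65 with all 4 factors. The interquartile range of MyoD percentiles was 40.7 points in MyoD-MyoG regions, 40.1 with c-Jun alone, 43.6 with RUNX1 alone and 37.2 with all 4 factors. That of MyoG percentiles was 40.7, 41.9, 30.9 and 31.4 points in the same order, and the part of these ranges in the correlations was not tested. Correlations over regions are descriptions, since regions share libraries, depth and local chromatin.

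The 10 MyoD-MyoG regions with the best worst rank, that is, the smallest value of the poorer of the 2 ranks, had MyoD scores of at least 2215 and MyoG scores of at least 2136. The first lay at chr1:154049992-154051152, with a MyoD score of 3100, a value shared by many peaks, and a MyoG score of 3010 in 856th place. Its centres were 17 bp apart, the nearest c-Jun peak was 18758 bp away and the nearest RUNX1 peak 100306 bp away. The next, chr5:139569166-139570279, had scores of 3100 and 2926 and centres 17 bp apart.

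At chr11:50559639-50560756 the order of ranks was turned. MyoD scored 2720 (1197th) and MyoG 3119 (83rd), again with centres 17 bp apart. The remaining 7 lay at chr18:12050468-12052004, chr3:28315341-28316855, chr17:74267061-74269103, chr11:59453327-59454881, chr2:131015171-131016813, chr7:120871306-120872988 and chr2:93272700-93273852. Their centre distances ran from 14.5 to 258 bp. Of the 10, the one closest to a partner was on chromosome 3, with a c-Jun peak 1781 bp and a RUNX1 peak 2054 bp away. Each of the 10 thus had both partners' nearest peaks more than a region's width away. Of all 12071 MyoD-MyoG regions, 1934 had a partner peak within 1 kb, so nothing particular to the strongest is read from this.

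At the other end, some regions were strong in 1 list and barely called in the other. The region at chr2:179719085-179720051 had a MyoD score of 1812 (percentile 94.6) and a MyoG score of 55.2 (percentile 5.04). At chr18:8644243-8645881 the scores were 1692 and 57.1, and at chr11:94176543-94177108 they were 1329 and 54.7. These 3 had strong MyoD in myoblasts and MyoG just above the lowest deposited score.

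The reverse held at 3 others. MyoG scored 1511 and MyoD 54.3 at chr8:127908404-127910176, whose centres lay 495 bp apart. At chr14:11983993-11984834 MyoG scored 1708 and MyoD 56.4, with centres 47 bp apart. At chr13:55475358-55476197 MyoG scored 1526 and MyoD 55.9, with centres 29.5 bp apart. On chromosome 14 the nearest c-Jun peak was 267411 bp away, and the nearest RUNX1 peak 9166 bp.

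Some members stood at the edge of the rule. In MyoD, 805 regions (6.67%) scored below 60, and in MyoG 618 (5.12%). In the whole lists, a MyoD score of 63.9 stood at percentile 9.13 and a MyoG score of 57.1 at percentile 6.56. The share of each whole list below 60 was not counted, so nothing particular to these regions is read from these counts. The lowest MyoD score, 50.01, was met at chr1:94968627-94969489 and chr2:52189105-52189767, where MyoG scored 110 and 136. The lowest MyoG score, also 50.01, was met at chr5:106285472-106286032 and chr16:18198424-18199135, where MyoD scored 68.3 and 63.9. Among regions with 1 peak of each factor, 8 had peaks that shared at most 50 bp, the smallest overlap being 10 bp. Just outside, 7 regions of MyoD alone had a MyoG peak of its own region at most 50 bp away. On the partner side, 123 members had a RUNX1 or c-Jun peak at most 50 bp away, and 41 left-out regions shared at most 50 bp with their partner peaks.

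The stronger a partner-free MyoD peak was, the more often MyoG was there in myotubes. Partner-free MyoD regions were split into 10 classes by the percentile of the MyoD score, 1 the weakest. MyoG was present at 45.6% (interval 43.8 to 47.5) in class 1, 70.8% (68.9 to 72.7) in class 5 and 93.6% (90.8 to 95.8) in class 10, rising at each step. The class sizes fell from 2870 to 408 regions. The rule used both presences, so the shares are given with no test. Shares by class were not counted over all MyoD regions, so the rise is not read as particular to partner-free ones.

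The rise was steeper from the MyoG side. MyoD was present at 17.9% (interval 16.7 to 19.1) of partner-free MyoG regions in the weakest MyoG class, 40.8% in class 5 and 98.0% (96.8 to 98.9) in class 10. Of the 758 partner-free MyoG regions in the strongest class, 15 had no MyoD peak in myoblasts. Shares by class were not counted over all MyoG regions either.

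**Figure D3:**
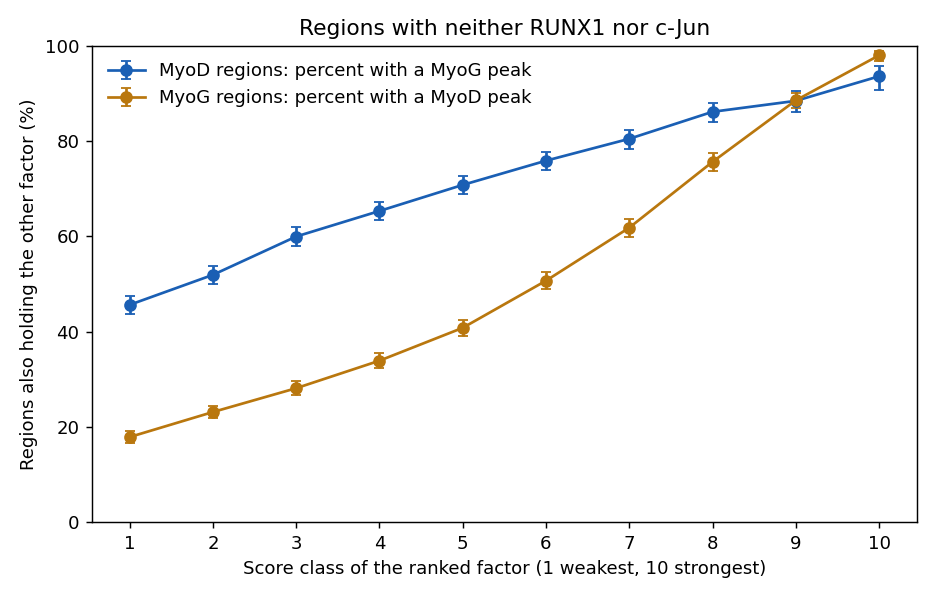
Percent of partner-free regions that also held the other factor, by score class of MyoD (blue) or MyoG (orange), with 95% exact binomial intervals as bars. From class 1 to class 10 the MyoD line rises from 45.6% to 93.6% and the MyoG line from 17.9% to 98.0%.

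Within a broad class of MyoD percentile, MyoG stood lower at MyoD-MyoG regions than at regions with RUNX1. Against regions with c-Jun alone it stood mostly higher. For MyoD peaks between percentiles 40 and 60, the median MyoG percentile was 58.4 in MyoD-MyoG regions (interquartile range 37.0 to 74.5), 76.3 with RUNX1, 65.3 with RUNX1 and c-Jun, and 50.2 with c-Jun. For MyoD percentiles above 80 the medians were 78.5, 92.3, 91.7 and 76.7, in the same order. Against RUNX1 alone, MyoD-MyoG regions were lower on 19 of 19 chromosomes in each of 5 such MyoD classes. Against c-Jun alone they were higher on between 13 and 17 of 19 chromosomes. MyoD strength was not matched within a class, and its part in these gaps was not tested.

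The interquartile ranges overlapped between all 4 kinds of region, so these are shifts of broad distributions. A region with several MyoG peaks takes the highest score among them, and 81.0% of regions with all 4 factors had 1 peak of each, against 98.7% of MyoD-MyoG regions. In regions with 1 MyoD and 1 MyoG peak, the medians between MyoD percentiles 40 and 60 were 58.3, 76.3, 63.7 and 49.9. For MyoD percentiles up to 20, that restriction left MyoD-MyoG regions below those with all 4 factors on 10 of 19 chromosomes, against 14 over all regions, and the medians were 44.1 and 45.5.

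**Figure D4:**
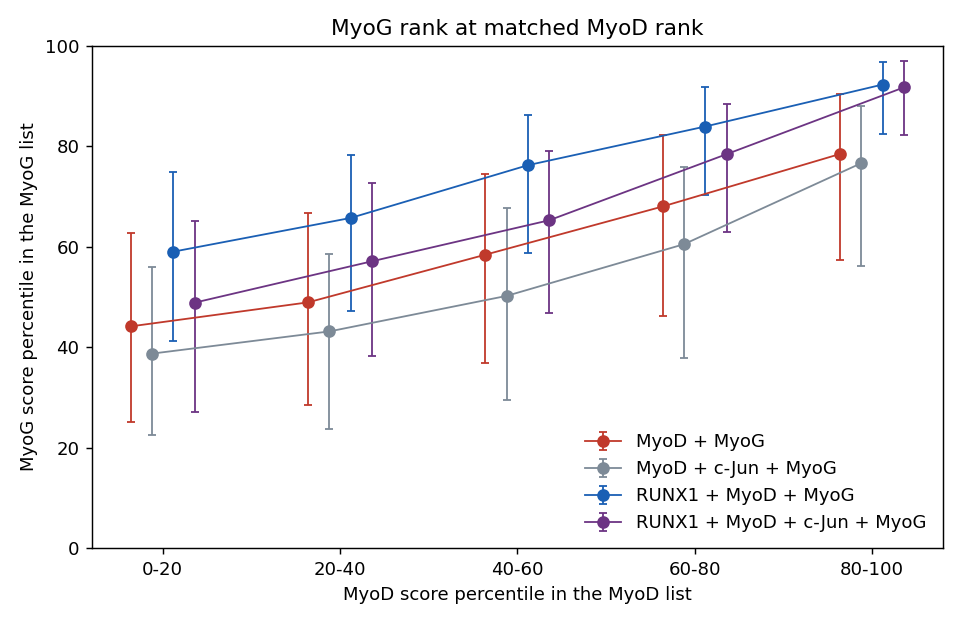
Median MyoG percentile (points) with the interquartile range (bars), by class of 20 MyoD percentiles and by the factors present. MyoD-MyoG regions in red rise from 44.2 to 78.5 and lie below both kinds of region with RUNX1 in each class.

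Partner peaks were often close by, although none was inside the region. The nearest RUNX1 peak was a median of 8792 bp away and the nearest c-Jun peak 9228 bp. A RUNX1 or c-Jun peak lay within 1 kb of 1934 MyoD-MyoG regions (interval of the share 15.4% to 16.7%), within 10 kb of 66.1% (interval 65.3 to 67.0) and within 50 kb of 94.9%. For regions of MyoG alone the shares were 66.2% within 10 kb and 94.6% within 50 kb. For regions of MyoD alone they were 56.6% and 89.2%. Closeness to a partner peak was thus not particular to MyoD-MyoG regions. Regions of MyoD alone were farther from both, at medians of 14517 bp for RUNX1 and 12035 bp for c-Jun, while regions of MyoG alone stood at 8324 bp and 9956 bp. By their distance to RUNX1, MyoD-MyoG regions were thus closer to MyoG-only than to MyoD-only sites.

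Partner-free MyoD regions near a RUNX1 peak held MyoG more often than those far from one. The share was 71.7% (interval 69.6 to 73.8) with RUNX1 within 1 kb, 64.2% (63.0 to 65.4) at 10 to 50 kb and 45.8% (43.3 to 48.4) beyond 100 kb. For c-Jun the shares were 68.1%, 65.1% and 45.4%, with 69.2% at 1 to 10 kb. Weighted to the same 10 MyoD score classes, the RUNX1 shares were 71.7%, 64.4% and 48.0%, and the c-Jun shares 67.5%, 65.3% and 49.4%. MyoG peaks of other regions showed the same pattern, with a share of 77.3% within 1 kb of one and 41.5% beyond 100 kb. Weighted in the same way, these were 76.8% and 44.6%.

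**Figure D5:**
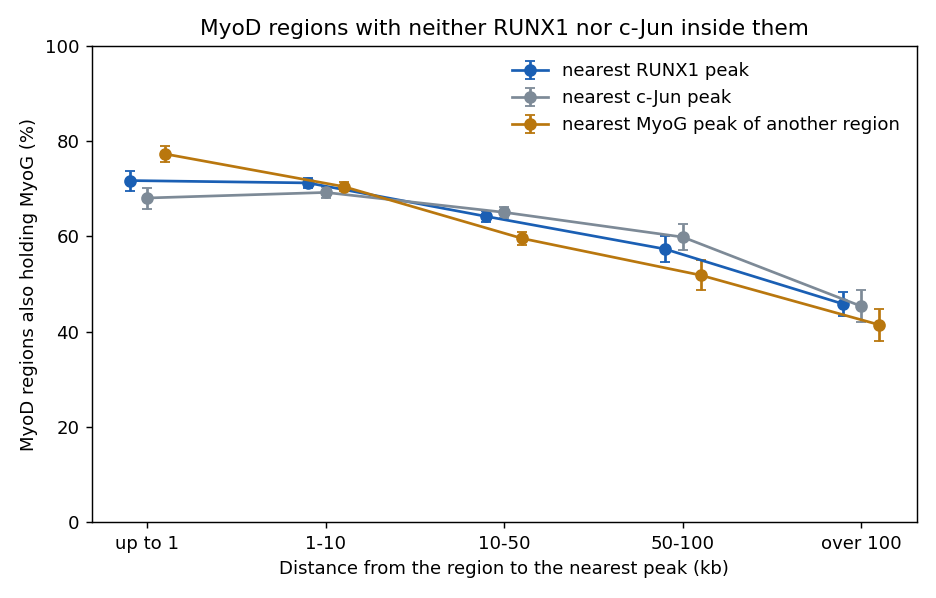
Percent of partner-free MyoD regions that also held MyoG (vertical axis) by distance to the nearest RUNX1, c-Jun or outside MyoG peak (horizontal axis, kb, in unequal steps), with 95% exact binomial intervals. Each line is lowest in the farthest step, running from between 68.1% and 77.3% up to 1 kb to between 41.5% and 45.8% beyond 100 kb.

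A RUNX1 peak within 10 kb went with MyoG even without c-Jun, and a c-Jun peak within 10 kb hardly did without RUNX1. This split is given at 10 kb alone. With RUNX1 alone within 10 kb, 69.6% (interval 67.7 to 71.4) of 2444 partner-free MyoD regions held MyoG. With c-Jun alone it was 61.3% (59.4 to 63.2) of 2556, with both 72.0% (70.9 to 73.1) of 6548, and with neither 59.9% (58.7 to 61.1) of 6824. RUNX1 alone stood above neither on 19 of 19 chromosomes and above c-Jun alone on 17, and c-Jun alone stood above neither on 12. Over all partner-free MyoD regions, those within 10 kb held MyoG more often than the others by 11.04 points for RUNX1 and 6.56 points for c-Jun. When peaks counted as shared only with centres within 150 bp, these gaps were 6.91 and 1.57 points.

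The shares were also taken separately for regions with and without another MyoG peak nearby. Where another MyoG peak lay within 10 kb, the share was 73.3% (interval 72.3 to 74.3) with RUNX1 near and 69.1% (67.5 to 70.7) with RUNX1 far, higher with RUNX1 on 17 of 19 chromosomes. Where no other MyoG peak lay that close, the shares were 60.7% (58.1 to 63.2) and 55.5% (54.2 to 56.7), higher with RUNX1 on 16 of 19. The same contrasts for c-Jun were 72.4% against 71.5% and 57.4% against 56.1%, each higher with c-Jun on 11 of 19 chromosomes. Nearby MyoG peaks moved with these shares, and their part in them was not tested further.

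Among MyoD-MyoG regions themselves, MyoG ranked lower far from RUNX1. The median MyoG percentile was 58.1 within 1 kb of a RUNX1 peak and 48.6 beyond 100 kb, while the median MyoD percentile was 41.3 and 45.6. For c-Jun the MyoG medians were 56.4 and 49.5, with MyoD at 44.4 and 42.0. The interquartile ranges of MyoG overlapped widely, at 35.7 to 75.4 within 1 kb of RUNX1 and 26.2 to 69.3 beyond 100 kb.

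MyoD-MyoG regions were spread along the chromosomes and mixed with the other kinds of region. The nearest region of any kind was a median of 2964 bp away, and the nearest other MyoD-MyoG region 34306 bp. That closest neighbour was another MyoD-MyoG region in 13.6% of cases, a region of MyoG alone in 17.6% and one with all 4 factors in 11.5%. These kinds made up 12.3%, 16.6% and 10.8% of all merged regions, so neighbours followed the overall mix closely.

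Windows of 100 kb with at least 1 MyoD-MyoG region numbered 7750, and 4905 of them held just 1. There were 99 windows with 5 or more. The fullest held 8, on chromosome 3 from 121700001 to 121800000 among 23 regions and on chromosome 18 from 65200001 to 65300000 among 18. Another 5 windows held 7, the first of them on chromosome 1 from 40000001 to 40100000. A region with all 4 factors lay in the same window for 55.7% (interval 54.8 to 56.6) of MyoD-MyoG regions, between 45.1% on chromosome 3 and 62.2% on chromosome 17. The same held for 42.9% of regions of MyoD alone, 56.6% of regions of MyoG alone and 53.1% of all regions other than those with all 4 factors.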

How the data were processed

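ChIP-seq peaks of RUNX1, MyoD, c-Jun and MyoG were analysed from 4 lists, 1 per factor, with the 16 samples in 8 groups of 2. Chromatin was sheared to about 300 bp and amplified for 15 PCR cycles, per the labels' protocols. CASAVA 1.7.0 and 1.8.2, Bowtie and the build mm9 are named in the submitters' processing notes. The deposited score of each peak was written by the authors' peak caller, since peak names begin with MACS. The caller's version and settings, its control and any pooling of replicates were not given in the sources used here. A list named by an abbreviation was taken as MyoG by elimination. The lists gave no separate values for the control samples, which were not used.

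Peaks on chromosomes 1 to 19 that shared at least 1 bp were merged. The highest-scoring peak of a factor stood for it. Distances to other peaks are edge to edge. Named regions were the 10 with the best worst rank, the 3 with the most unequal percentiles in each direction, the one with the most peaks, the fullest windows of 100 kb and the pair at the lowest score in each list. The reading of scores as percentiles, the members and all lists were chosen with earlier results of these data known. No test across regions was made. Merging, classes and distances were tested on simulated peaks. Planned work on promoters, motifs and gene lists needed a genome or annotation of the lists' build and was not done here. Scripts ran in Python 3.11.15 with pandas 2.3.3, numpy 2.4.6, matplotlib 3.10.9 and scipy 1.17.1.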

Additional observations from a re-analysis of the deposited data

Results flagged for a closer look

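Chromosome X was outside the rule and was counted separately. It held 492 regions with MyoD and MyoG, of which 248 had neither RUNX1 nor c-Jun, or 50.4% (95% exact binomial interval 45.9 to 54.9), above the highest of the 19 other chromosomes, 39.0% on chromosome 16. The median percentiles there were 41.8 for MyoD and 51.0 for MyoG, and the median centre distance was 50 bp. The MyoD list also held 19 peaks on chromosome Y, where the MyoG list held 0, so no such region arose there.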

How the results depend on the processing

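Of 56 alternative values, 35 moved by less than the 95% interval of the value reported or, for counts, by less than 1.5 times. The other 21 moved further. Of the 56, 0 changed sign, but only the rank correlation and the gaps near against far from a partner peak could have done so. The intervals are narrow because regions are many. The 14 alternative gaps in the MyoG share between MyoD regions near and far from a RUNX1 or c-Jun peak, chosen after the result was seen, all stayed above 0. In the stronger 50% of each list, 6841 regions met the rule, against 12071. Those lists hold fewer peaks by construction, and weaker partner peaks then count as absent. The share of regions with both factors that lacked a partner, 35.7%, was 37.3% when the overlap had to span 50% of the shorter peak, 51.2% with centres within 150 bp, 41.5% in the stronger 50%, 29.9% with no partner peak within 1 kb and 38.5% in regions with at most 1 peak of each factor, an alternative chosen after the result was seen. Centres within 150 bp, which lets a partner overlap and still count as absent, gave a median centre distance of 44 bp, median percentiles of 46.1 for MyoD and 58.9 for MyoG and a rank correlation of 0.42. In the stronger 50% these were 50.5 bp, 71.7, 79.7 and 0.32. The gap of 11.04 points near against far from RUNX1 was 6.91 with centres within 150 bp, 6.69 with near as 1 kb and 17.1 with near as 50 kb. The gap of 6.56 points for c-Jun was 1.57 with centres within 150 bp, 5.17 in the stronger 50%, 2.63 at 1 kb and 13.6 at 50 kb. The cause of these moves was not tested. No paired analysis was possible because no list separates its samples, which also kept single replicates from being left out. Alternatives for promoter shares and motifs were not run.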
